A study of Rattus norvegicus with 18 samples.

Results

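Calcium-binding proteins, neurofilament subunits and the CaMKII kinase subunits are among the most used molecular marks of hippocampal neurons, and 9 of their genes are described here in the pilocarpine model of temporal lobe epilepsy. They are Calb1, Calb2, Pvalb, Hpca, Nefl, Nefm, Nefh, Camk2a and Camk2b, taken as a list of gene symbols, out of 12344 genes named on the array. They were measured by 11 probes, since Camk2a and Camk2b have a pair of probes each. Where a gene has a pair, the probe with the higher mean stands for it.

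Male adult Wistar rats were given scopolamine methylnitrate to limit peripheral effects and then pilocarpine, a muscarinic agonist that sets off status epilepticus (SE), which was stopped with diazepam. Whole hippocampi of pilocarpine-treated rats were taken on day 3 (D3, n = 5) or day 7 (D7, n = 5) after SE or soon after the first spontaneous seizure (Chronic, n = 5), with 1 array per rat. The sample labels call the last of these times immediate, for the treated and the saline rats, and matching it to the Chronic group of the methods is not certain. The saline-treated rats (Control, n = 3) comprised 1 array for each of these 3 times, fewer than the methods give, so that D3, D7 and Chronic are set against the same 3 arrays and the comparisons are not independent of each other. Controls received saline in place of pilocarpine, and the methods mention neither scopolamine methylnitrate nor diazepam for them.

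Calbindin, calretinin and parvalbumin are cytosolic EF-hand proteins that buffer calcium and so shape its rise and fall after a spike. In the rat hippocampus calbindin, encoded by Calb1, is known from dentate granule cells, from part of the CA1 pyramidal cells and from some interneurons, whereas parvalbumin (Pvalb) marks fast-spiking basket and axo-axonic cells and calretinin (Calb2) another set of interneurons. Hippocalcin (Hpca) is a calcium sensor of pyramidal cells, which moves to membranes when it binds calcium. The light, medium and heavy neurofilament chains (Nefl, Nefm, Nefh) assemble into the intermediate filaments of large axons. CaMKII alpha and beta (Camk2a, Camk2b) are the main subunits of the calcium- and calmodulin-dependent kinase at excitatory synapses. The list thus covers principal cells and interneurons, and only some of its genes mark principal neurons.

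Values are the normalized intensities as deposited, on a linear scale on which the median spot of each array lies near 1. Levels are compared between arrays for the same probe and never between probes. Each spot carries a flag, G for good signal or L for low signal, and 66.0% to 76.0% of the spots were flagged G on the 18 arrays. Changes are log2 fold changes over Control with their standard error, from 1 limma fit of all arrays. A gene is said to have risen or fallen when it passed an adjusted p under 0.05 over all 33800 probes and changed at least 2-fold. The median log2 fold change of all 12331 genes tested was not 0 but -0.10 at D3, -0.12 at D7 and -0.12 in Chronic. The changes below are to be read against these values. The tissue label was checked with fixed marker lists. Of 8 measured general neuronal genes 6 were flagged G on every array, as were 6 of 8 principal neuron genes and 9 of 9 astrocyte genes. Of the 6 choroid plexus genes none was flagged G on every array, but each was on some arrays. Ttr, with some spots left out, was flagged G wherever it was used. With 3 to 5 arrays per group, the number of arrays limits the precision.

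The start regions of the members that fell and that have an entry among the promoters of the RefSeq table (GRCr8) are printed because they belong to genes of different cells, an interneuron buffer and a principal cell kinase, that were both lower at D3. Of the 9 genes 4 had an entry, Pvalb, Camk2a, Camk2b and Hpca. Each sequence runs 5′ to 3′ on the strand of the gene, over 250 bases before and 50 bases after the annotated start. Capitals mark the GC box GGGCGG, the cAMP response element core TGACG and TATAA, each searched on both strands with overlapping matches counted.
Pvalb, chr7:111666240-111666539, minus strand: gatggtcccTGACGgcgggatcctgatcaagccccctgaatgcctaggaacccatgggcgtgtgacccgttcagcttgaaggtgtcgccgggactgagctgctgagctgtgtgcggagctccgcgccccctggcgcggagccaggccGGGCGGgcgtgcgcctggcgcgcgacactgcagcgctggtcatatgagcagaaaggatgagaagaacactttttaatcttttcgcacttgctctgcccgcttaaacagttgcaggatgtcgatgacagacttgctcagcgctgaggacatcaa
Camk2a, chr18:56648930-56649229, plus strand: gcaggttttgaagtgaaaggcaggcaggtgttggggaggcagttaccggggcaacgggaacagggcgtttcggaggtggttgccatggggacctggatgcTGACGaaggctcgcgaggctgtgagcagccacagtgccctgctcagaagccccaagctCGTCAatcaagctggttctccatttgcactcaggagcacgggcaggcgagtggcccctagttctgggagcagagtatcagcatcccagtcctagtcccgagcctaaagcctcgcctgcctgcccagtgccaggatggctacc
The Pvalb window held 1 GC box and 1 TGACG core. The Camk2a window held 2 TGACG cores and no GC box. Of the other members with an entry, Camk2b had 6 GC boxes and no TGACG core, and Hpca had 1 TGACG core and no GC box. None of the 4 windows held TATAA. Over 33469 promoters of the same length, 33.1% held a GC box, 21.2% the TGACG core and 26.2% TATAA. These matches are a description of the letters in the windows.

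Among the 9 genes, 5 fell at D3 (Calb1, Calb2, Pvalb, Nefm and Camk2a), 0 at D7 and 1 in Chronic (Calb1), and none rose at any time. Over all genes tested, 0.973% fell at D3, 0.487% at D7 and 0.673% in Chronic, while 5.09%, 3.8% and 2.87% rose. Without the fold limit, 7 of the 9 were lower at D3, 4 at D7 and 3 in Chronic, against 16.5%, 15.5% and 12.7% of all genes. The members were chosen with earlier results of these data known, so these counts describe the list and do not test it. At D7, where 0 passed, 5 were lower at an unadjusted p under 0.05 in limma, as were 26.1% of all genes. The methods' t-test was counted only with the fold limit. No member changed 2-fold at D7 (lowest log2 fold change -0.99), so that count could only be 0 and decides nothing. The median log2 fold change of the 9 genes was -1.14 (D3), -0.64 (D7) and -0.42 (Chronic). It was, with Nefh left out because its signal was near the background, -1.17, -0.66 and -0.44. The sign was negative for all 9 at all 3 times, except that Camk2a in Chronic was at 0.056 after quantile normalization. In whole tissue, fewer cells of a type and less RNA per cell cannot be told apart.

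**Figure D1:**
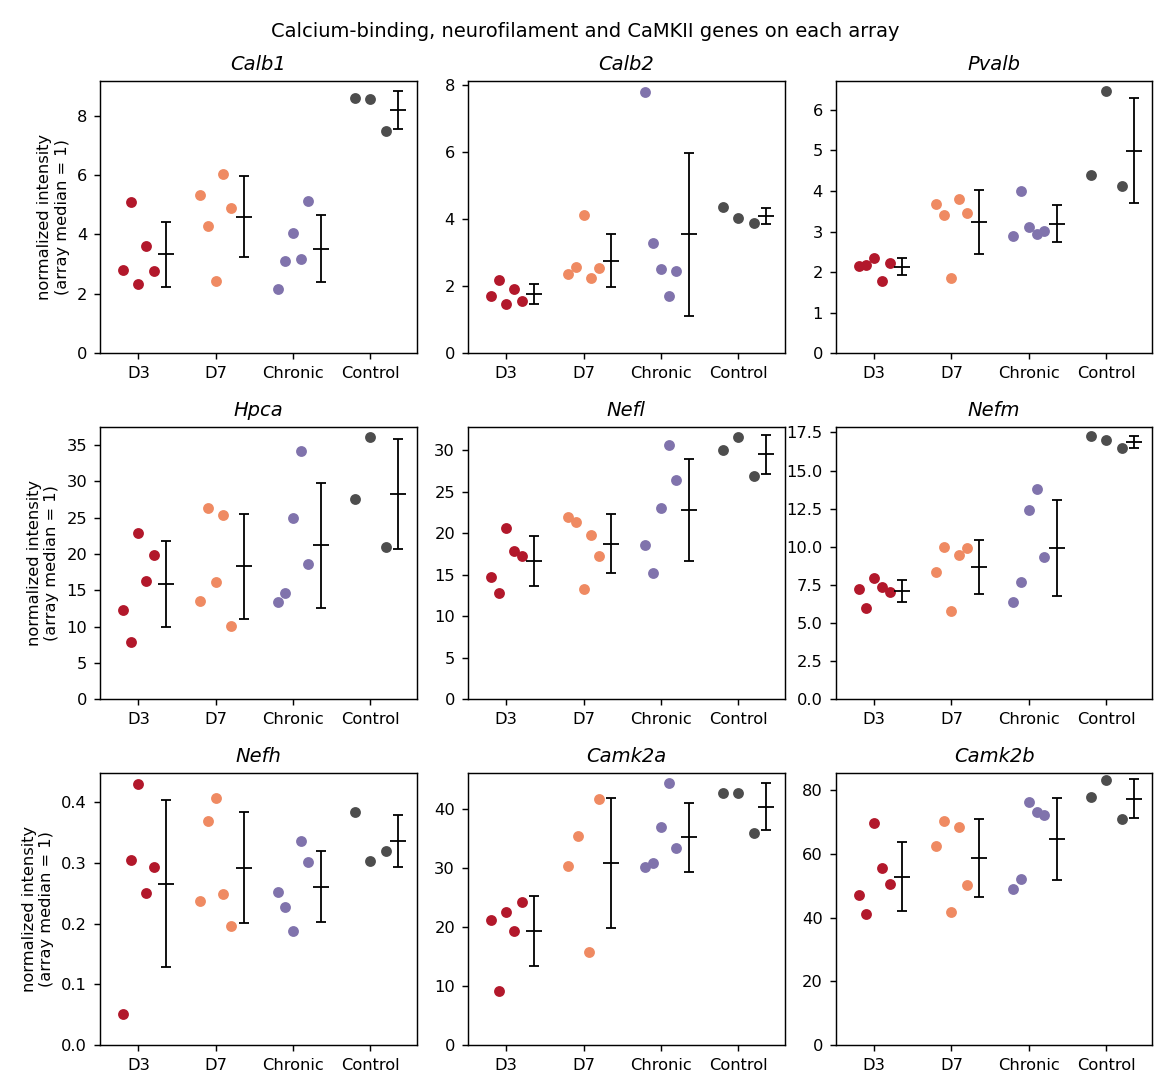
Normalized intensity (linear scale, median spot of each array near 1) of the 9 genes on each array, with 1 point per array and the group mean ± SD as a black bar beside the points. Calb1, Pvalb and Nefm lie below every Control array in all 3 pilocarpine groups, and Calb2 on 1 Chronic array (7.80) lies above them.

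Calb1, the gene of calbindin, was lower on all 15 pilocarpine arrays than on any Control array. Its intensity at D3 was 2.81, 5.11, 2.33, 3.61 and 2.78. At D7 it was 5.33, 4.28, 2.43, 6.02 and 4.88, and in Chronic 2.17, 3.12, 4.03, 3.18 and 5.13. The Control arrays had 8.58, 8.54 and 7.46. The Control values thus lay close together, whereas the pilocarpine groups each spanned about the same range of levels, and the highest of their arrays stayed under the lowest Control array. Calb1 fell at D3 (-1.35 ± 0.28, n = 5 against 3, 2.56-fold lower, limma adjusted p = 0.00218) and in Chronic (-1.27 ± 0.28, 2.42-fold lower, adjusted p = 0.00658). At D7 its log2 fold change was -0.90 ± 0.28 (adjusted p = 0.0323), short of 2-fold, and it passed without D7 replicate 34 (-1.01, adjusted p = 0.0194). The differences between the pilocarpine groups did not pass, and that of Chronic against D7 was -0.37, with a 95% interval from -0.88 to 0.13. Set against only the Control array of its own time, Calb1 was not called at D3 (-1.42, adjusted p = 0.0708) or in Chronic (-1.14, adjusted p = 0.279). By the methods' t-test after adjustment it was not called in Chronic (adjusted p = 0.0587).

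Pvalb, the gene of parvalbumin, likewise lay below Control on all 15 pilocarpine arrays. It had 2.16, 2.17, 2.35, 1.79 and 2.23 at D3, values that differed little among the 5 rats. At D7 it had 3.68, 3.40, 1.86, 3.81 and 3.45, so that 4 arrays lay above every D3 array and replicate 33 within the D3 range. In Chronic it had 2.90, 4.0, 3.12, 2.94 and 3.01, all above D3, and in Control 4.38, 6.48 and 4.12. Pvalb fell at D3 (-1.20 ± 0.20, n = 5 against 3, 2.30-fold lower, limma adjusted p = 0.000359). Its log2 fold change was -0.64 ± 0.20 at D7 (adjusted p = 0.031) and -0.63 ± 0.20 in Chronic (adjusted p = 0.0389), both short of 2-fold. Although the Chronic and D3 arrays did not overlap, the difference between them (0.57 ± 0.17) had an adjusted p of 0.0816, and that of D7 against D3 (0.56 ± 0.17) one of 0.141. Without D7 replicate 33 the D7 change over Control was -0.45 and the difference of D7 from D3 was 0.75 (adjusted p = 0.00435), short of 2-fold. Without Control replicate 36, which had the highest value, the change at D3 was just short of 2-fold (-0.998, adjusted p = 0.00532). The later changes also depended on single arrays. With 1 array left out, the limma adjusted p rose to as much as 0.205 at D7 and 0.241 in Chronic, and the smallest falls were -0.44 and -0.42.

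Calb2, the gene of calretinin, was lower at D3 and then differed between single rats. Its D3 intensities were 1.71, 2.20, 1.48, 1.91 and 1.57, below every Control array. At D7 it had 2.37, 2.57, 4.14, 2.23 and 2.53, and in Chronic 7.80, 3.29, 2.51, 1.71 and 2.46, against 4.36, 4.05 and 3.88 in Control. D7 replicate 33 lay within the Control range and Chronic replicate 41 above it, whereas the other 8 arrays of these groups lay below. Calb2 fell at D3 (-1.22 ± 0.32, n = 5 against 3, 2.33-fold lower, limma adjusted p = 0.0091). The log2 fold change was -0.60 ± 0.32 at D7 (adjusted p = 0.197) and -0.42 ± 0.32 in Chronic (adjusted p = 0.415). Without Chronic replicate 41 the Chronic value was -0.75 (adjusted p = 0.0306), and without Chronic replicate 44 it was -0.21 (adjusted p = 0.701). Calb2 was not called at D3 when only the D3 Control array was used (-1.31, adjusted p = 0.131).

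Hpca, the gene of hippocalcin, varied widely between rats of a group, with an SD of its log2 values of 0.61 (D3), 0.59 (D7) and 0.56 (Chronic), and 0.39 in Control. Its intensity was 12.3, 7.81, 22.8, 16.3 and 19.9 at D3 and 13.5, 26.3, 16.1, 25.3 and 10.1 at D7. In Chronic it was 13.4, 14.6, 25.0, 34.3 and 18.6, and in Control 27.5, 36.1 and 21.0. All 3 pilocarpine groups overlapped Control, with 4 of 5 arrays below the lowest Control array at D3, 3 of 5 at D7 and 3 of 5 in Chronic. Its log2 fold change was -0.89 ± 0.36 at D3 (n = 5 against 3, limma adjusted p = 0.0781), -0.69 ± 0.36 at D7 (adjusted p = 0.192) and -0.47 ± 0.36 in Chronic (adjusted p = 0.416). None of these passed, and the 95% interval at D3 ran from -1.64 to -0.15. Without D3 replicate 13 the D3 change passed (-1.05, adjusted p = 0.0458).

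Of the neurofilament genes, Nefm showed the tightest Control values and fell at D3. It had 7.22, 5.96, 7.94, 7.33 and 7.00 at D3 and 8.32, 9.99, 5.76, 9.43 and 9.93 at D7. In Chronic it had 6.39, 7.68, 12.4, 13.8 and 9.31, against 17.2, 17.0 and 16.5 in Control. No pilocarpine array reached the Control range. The SD of the intensity was 0.72 (D3), 1.77 (D7) and 3.12 (Chronic, n = 5 each), and 0.397 in Control (n = 3), and the difference in spread was not tested. The log2 fold change was -1.26 ± 0.21 at D3 (2.39-fold lower, limma adjusted p = 0.000353), -0.99 ± 0.21 at D7 (1.98-fold lower, adjusted p = 0.00403) and -0.83 ± 0.21 in Chronic (adjusted p = 0.0128). The D7 value sat at the fold limit and passed when D7 replicate 32, 34 or 35 or Control replicate 47 was left out, with values from -1.05 to -1.01.

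Nefl, whose light chain is the core on which the other chains assemble, lies beside Nefm on chromosome 15, with 0 protein-coding genes between them in GRCr8. It had 14.8, 12.8, 20.6, 17.8 and 17.3 at D3 and 21.9, 21.3, 13.2, 19.8 and 17.2 at D7. In Chronic it had 18.5, 15.2, 23.1, 30.6 and 26.4, against 30.0, 31.5 and 26.9 in Control. All D3 and D7 arrays lay below Control, as did 4 of the 5 Chronic arrays. Its log2 fold change was -0.84 ± 0.20 at D3 (n = 5 against 3, limma adjusted p = 0.00562), -0.68 ± 0.20 at D7 (adjusted p = 0.0258) and -0.41 ± 0.20 in Chronic (adjusted p = 0.178). It did not reach 2-fold at any time.

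Nefh, the heavy chain, was measured near the background. Its spot was flagged L on all 3 Control arrays, on 3 of 5 at D3 and on 4 of 5 each at D7 and in Chronic. The intensities ranged from 0.0505 to 0.43 at D3, from 0.196 to 0.408 at D7 and from 0.187 to 0.337 in Chronic, against 0.303 to 0.384 in Control. The groups overlapped, no comparison passed (limma adjusted p = 0.394 at D3), and no fold over Control is given. Its log2 differences enter only the counts and medians over the 9 genes, the heatmap of arrays, the plot of relatives and the alternatives, and their size is uncertain.

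**Figure D2:**
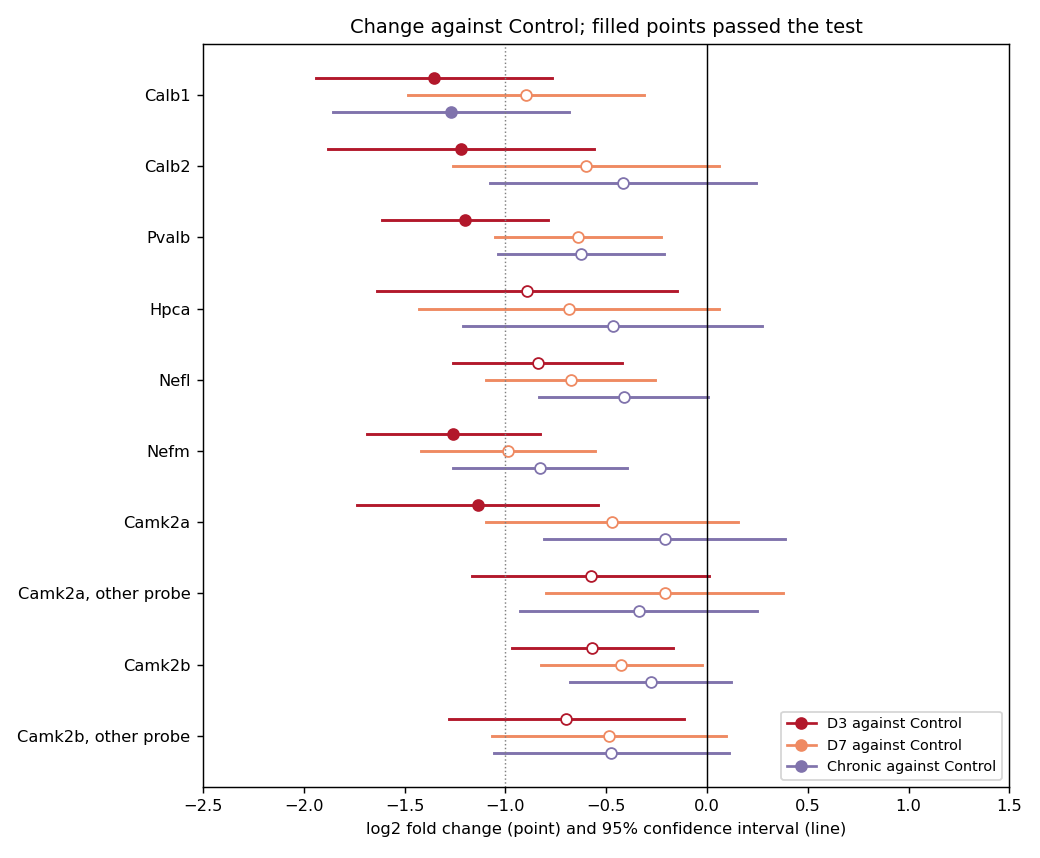
Log2 fold change over Control (x axis, points) with the 95% confidence interval from limma (lines) for each of the 10 probes of the genes other than Nefh at D3, D7 and in Chronic. Filled points passed an adjusted p under 0.05 and a 2-fold change (dotted line at -1): 5 at D3, 0 at D7 and 1 in Chronic.

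Camk2a, the alpha subunit, fell at D3 and was near Control in Chronic. Its brighter probe (GE13501) had 21.1, 9.21, 22.5, 19.3 and 24.2 at D3, all below Control, with replicate 12 far below the rest. At D7 it had 30.3, 35.4, 15.8 and 41.6 on 4 arrays, since the spot of D7 replicate 35 was flagged as contaminated and left out. In Chronic it had 30.2, 30.9, 37.0, 44.4 and 33.4, and in Control 42.6, 42.6 and 35.8, so that 1 Chronic array exceeded all Control arrays. The log2 fold change was -1.14 ± 0.29 at D3 (n = 5 against 3, 2.20-fold lower, limma adjusted p = 0.008), -0.47 ± 0.30 at D7 (n = 4 against 3, adjusted p = 0.292) and -0.21 ± 0.29 in Chronic (adjusted p = 0.681). Chronic was above D3 by 0.93 ± 0.25, with an adjusted p of 0.0501, and the arrays of these groups did not overlap. The call at D3 was lost without D3 replicate 12 (-0.89, adjusted p = 0.0129), after quantile normalization (-0.86, adjusted p = 0.0339), by the methods' t-test after adjustment (adjusted p = 0.0592) and against only the D3 Control array (-1.22, adjusted p = 0.122). The D7 value was -0.18 without D7 replicate 33.

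The dimmer Camk2a probe (GE20058) was flagged G on every array and did not pass. It had 1.95, 1.41, 3.45, 2.41 and 3.15 at D3, against 3.21, 3.55 and 3.79 in Control, a log2 fold change of -0.58 ± 0.28 (limma adjusted p = 0.154). In Chronic it was at -0.34 ± 0.28 and at D7 at -0.21 ± 0.28. The difference of the bright from the dim probe was lower at D3 than in Control by 0.56 on the log2 scale, with p = 0.0714 in a two-sided exact permutation test, 0.214 after adjustment over 6 such tests. The smallest p that 5 arrays against 3 can give is 0.0357. This test was chosen after the values of the probes were seen.

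Camk2b, the beta subunit, did not reach 2-fold at any time by either probe. Its brighter probe (GE18690) had 47.04, 41.2, 69.9, 55.6 and 50.6 at D3 and 62.4, 70.2, 41.8, 68.4 and 50.1 at D7. In Chronic it had 49.0, 52.3, 76.4, 73.3 and 72.3, and in Control 77.8, 83.2 and 71.0. All D3 and D7 arrays lay below Control, those nearest to it by little, and 3 Chronic arrays lay within its range. The log2 fold change was -0.57 ± 0.19 at D3 (n = 5 against 3, limma adjusted p = 0.0375), -0.42 ± 0.19 at D7 (adjusted p = 0.129) and -0.28 ± 0.19 in Chronic (adjusted p = 0.358), all short of 2-fold. The other probe (GE20786) gave -0.70 ± 0.28, -0.49 ± 0.28 and -0.48 ± 0.28 at the same times, and the difference between the probes had adjusted p from 0.214 to 0.821 in the exact permutation test.

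The order of the groups was alike for most of the list. For the 8 genes other than Nefh the group mean was lowest at D3 and highest in Control, and 7 of them had D7 and Chronic in this order between the ends, the exception being Calb1 with Chronic below D7. In the direct tests, which use the Control arrays only for the spread, the differences of D7 against D3 and of Chronic against D3 were positive for these 8 genes, with medians of 0.36 and 0.43. With 1 array left out, Hpca turned negative for D7 against D3 (-0.022 without D3 replicate 12) and Calb1 for Chronic against D3 (-0.033 without D3 replicate 13 and -0.069 without Chronic replicate 45). Nefh was also positive, but negative in both without D3 replicate 11. None of the 9 genes passed, against 0.527% of all genes for D7 against D3, 1.12% for Chronic against D3 and 0.0405% for Chronic against D7. At an unadjusted p under 0.05 in limma 3 of the 9 were higher for D7 against D3 (Calb2, Pvalb and Camk2a), as were 4.42% of all genes, and 5 for Chronic against D3 (the same 3 with Nefl and Nefm), as were 6.16% of all genes. For Chronic against D7 there were 0 of the 9, against 11.1% of all genes in either direction. The methods' t-test was counted only with the fold limit, which none of the 9 reached in these comparisons, so its count decides nothing here. By the adjusted limma tests on all arrays, a fall that passed at D3 and not later is not shown to differ between the times. Single arrays mattered here. With 1 left out, D7 against D3 ran from 0.42 to 0.96 for Camk2a (limma adjusted p from 0.044 to 0.524). For Pvalb it ran from 0.49 to 0.75 (adjusted p from 0.00435 to 0.294), and neither reached 2-fold. Without Chronic replicate 44, Calb2 passed for Chronic against D3 (1.01, adjusted p = 0.0481).

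At D3 all arrays lay below Control for 7 of the 9 genes, at D7 for 5 (with 4 arrays for Camk2a) and in Chronic for 3. Over all 12331 genes the same was true of 26.4%, 21.7% and 20.3%.

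**Figure D3:**
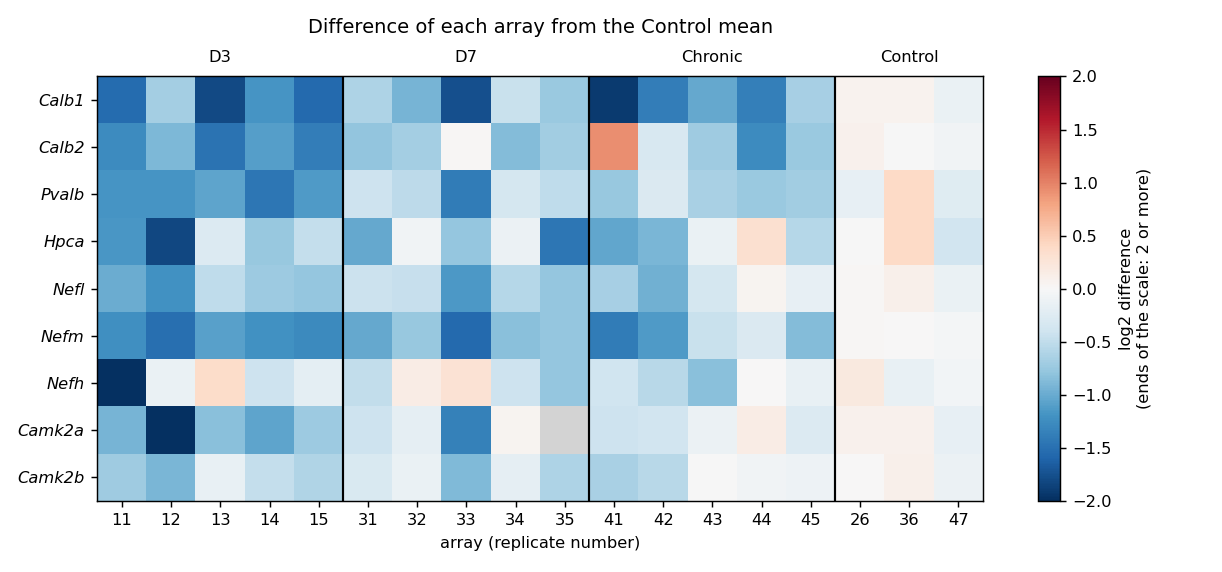
Log2 difference of each array (columns, by replicate number) from the Control mean for the 9 genes (rows), blue where lower and red where higher, with the scale ending at 2 in either direction and grey for the spot left out. D7 replicate 33 and Chronic replicate 41 are the lowest of their groups for 6 genes each, and Chronic replicate 41 is above Control for Calb2. The spots of Nefh were mostly flagged L.

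Single arrays were low for several of the genes at once, in part for the same genes. Nefm, Camk2a and Camk2b were the lowest of their group on D3 replicate 12, D7 replicate 33 and Chronic replicate 41. Calb1 and Pvalb were so on D7 replicate 33 and Chronic replicate 41. D7 replicate 33 was the lowest of its group for 6 of the 9 genes and Chronic replicate 41 for 6, D3 replicate 12 for 5 and Control replicate 47 for 8. At D3, replicate 12 was the highest for Calb1 and Calb2, and replicate 13, the lowest for these 2 genes, was the highest for 6 others. Calb2 and Nefh were the highest of their group on D7 replicate 33, and Calb2 on Chronic replicate 41. The mean log2 difference from the Control mean over the 8 genes other than Nefh ran from -1.29 (replicate 12) to -0.90 (replicate 13) on the D3 arrays, from -1.11 (replicate 33) to -0.42 (replicate 34) on the D7 arrays and from -0.74 to -0.40 on the Chronic arrays. With Nefh the lowest D3 array was replicate 11, at -1.30. Whether the genes varied together was not tested. On D7 replicate 33 the summed intensity of 10 microglia and macrophage genes was 588, above the 209 to 404 of the other D7 arrays, and that of 7 principal neuron genes was 51.1, below their 72.8 to 105. On Chronic replicate 41 the sums were 286 and 62.7, against 190 to 361 and 66.8 to 98.9 on the other Chronic arrays. The part of these in the levels of the members was not tested.

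The relatives of the members were counted in 3 lists. Of 16 other calcium-binding proteins and calmodulin partners measured, 2 fell at D3, 1 at D7 and 2 in Chronic, none rose, and 13, 11 and 11 were lower without the fold limit. Their median log2 fold change was -0.79 at D3, -0.54 at D7 and -0.52 in Chronic. Hpcal1, a close relative of hippocalcin, fell at all 3 times, with log2 fold changes of -1.11 ± 0.26 (D3), -1.08 ± 0.26 (D7) and -1.17 ± 0.26 (Chronic) and limma adjusted p of 0.0044, 0.008 and 0.00639. A second probe (GE20524) also passed at all 3 times, while GE21561 was at -0.70, -0.74 and -0.72 and did not pass. Vsnl1, the visinin-like neuronal calcium sensor VILIP-1, fell at D3 (-1.07 ± 0.19, adjusted p = 0.000652) and was at -0.97 ± 0.19 and -0.93 ± 0.19 at D7 and in Chronic. Its other probe (GE1116055), flagged G on 2 of 5 arrays at D3, did not pass (-0.53 ± 0.34 at D3, adjusted p = 0.302). Kcnip3, a calcium sensor that binds potassium channels and DNA, passed as lower in Chronic (adjusted p = 0.0399), but its spot was flagged G on 1 of 5 arrays there and its other probe L on all 18 arrays, and no fold is given.

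Of 14 further genes of the CaM kinase and calcineurin system, 2 fell at D3, 1 at D7 and 1 in Chronic, while 11, 8 and 7 were lower without the fold limit. The median was -0.74 at D3, -0.55 at D7 and -0.53 in Chronic. Camkv, which encodes a kinase-like protein of synapses without kinase activity, fell at all 3 times, with log2 fold changes of -1.42 ± 0.26 (D3), -1.12 ± 0.26 (D7) and -1.38 ± 0.26 (Chronic) (limma adjusted p = 0.000799, 0.00683 and 0.00243). Camkk2, a kinase that activates other CaM kinases, fell at D3 by its brighter probe (-1.25 ± 0.26, n = 4 against 3 since 1 spot was left out, limma adjusted p = 0.00272) and was at -0.25 ± 0.25 at D7 and -0.58 ± 0.25 in Chronic. Its other probe (GE13064), flagged G on every array, was at -0.66 ± 0.20 at D3 (adjusted p = 0.021), -0.60 ± 0.20 at D7 and -0.66 ± 0.20 in Chronic and reached 2-fold at no time. Camk1d passed as higher at D3 (adjusted p = 0.0152), but its spot was flagged L on all 3 Control arrays and G on 1 of 5 at D3, and no fold is given. Of 9 other neurofilament and neuronal cytoskeleton genes none passed the fold limit at any time, while 7 were lower without it at each time, with a median of -0.66 at D3, -0.65 at D7 and -0.62 in Chronic.

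**Figure D4:**
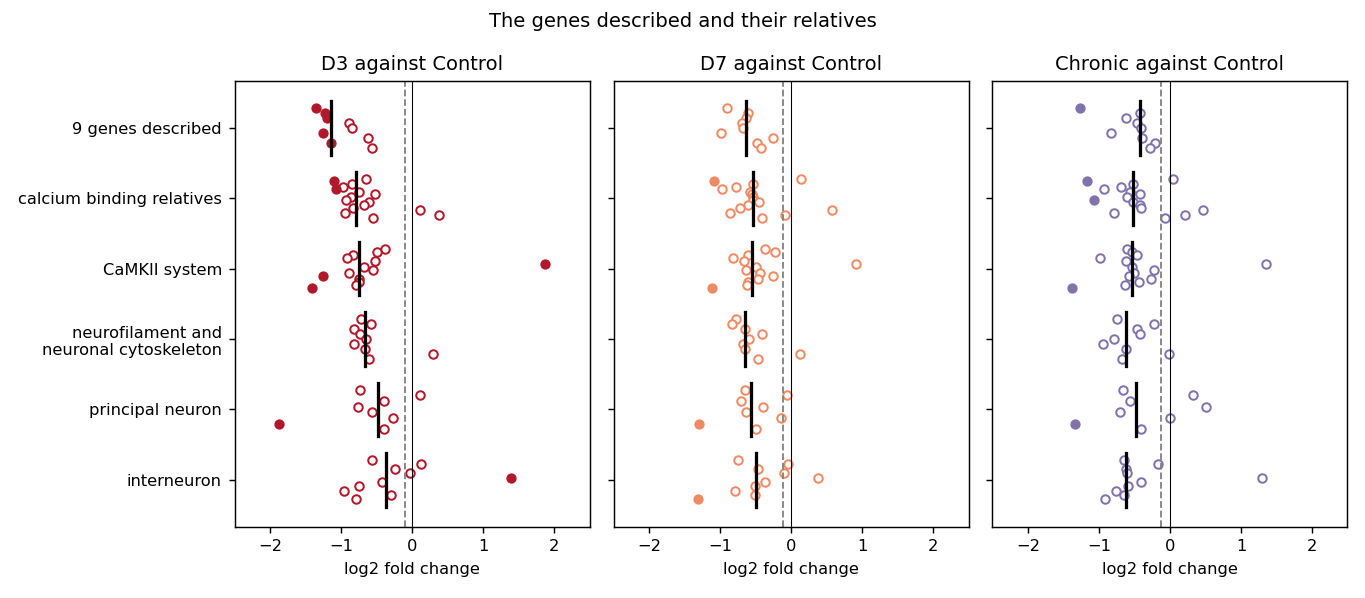
Log2 fold change over Control (x axis) at D3, D7 and in Chronic of the 9 genes and of the measured genes of 5 lists without them, with 1 point per gene, filled where the gene passed, a black bar at the list median and a dashed line at the median of all genes. At D3 the medians are -1.14 for the 9 genes and -0.79, -0.74 and -0.66 for the calcium-binding, CaM kinase and cytoskeleton lists, against -0.10 for all genes. The points of Nefh and of Camk1d come from spots mostly flagged L. The spot of Kcnip3 was flagged G on 2 of 5 arrays at D3, 3 of 5 at D7, 1 of 5 in Chronic and 3 of 3 in Control.

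Markers of cell types moved at the same times. The summed intensity of 6 genes of all neurons was 290 to 330 (D3), 254 to 370 (D7) and 316 to 354 (Chronic), against 452 to 527 in Control, and 5 of 8 measured genes were lower without the fold limit at each time while none fell. For 7 principal neuron genes the sum was 57.2 to 85.4 (D3), 51.1 to 105 (D7) and 62.7 to 98.9 (Chronic), against 120 to 132 in Control. Of 8 measured, 1 fell at each time, the CA1 gene Fibcd1 (-1.87 ± 0.35 at D3, -1.30 ± 0.35 at D7 and -1.33 ± 0.35 in Chronic). Counted by adjusted p alone, only 3, 2 and 2 of these 8 genes were lower, and none was higher. The median of the 8 genes lay at -0.48, -0.56 and -0.48 on the log2 scale, and the highest gene at 0.11, -0.06 and 0.51. For 10 interneuron genes the sum was 106 to 148, 79.1 to 122 and 96.4 to 158 at these times, against 143 to 149 in Control. Their median log2 fold change was -0.36 (D3), -0.49 (D7) and -0.62 (Chronic). Without the fold limit 4, 5 and 4 of the 10 were lower, against 16.5%, 15.5% and 12.7% of all genes, and 1, 0 and 0 were higher. In this list Npy, the gene of neuropeptide Y, rose at D3 (1.40 ± 0.48, limma adjusted p = 0.0421), and Tac1, the precursor of substance P, fell at D7 (-1.31 ± 0.43, adjusted p = 0.0395). Of 7 immature neuron genes 1 fell, Neurod1 at D7 (-1.06 ± 0.27, adjusted p = 0.0119, but -0.78 ± 0.29 and adjusted p = 0.0616 by its other probe), and the sum of 6 was 60.7 to 72.7, 56.7 to 67.6 and 50.1 to 74.1, against 76.9 to 90.9 in Control. The 7 genes did not move as a group. Without the fold limit 2, 3 and 2 were lower and 1 was higher at each time. Their median log2 fold change was -0.39 (D3), -0.52 (D7) and 0.30 (Chronic).

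Markers of microglia and of reactive astrocytes were higher. All 10 microglia and macrophage genes rose at D7, and 8 each at D3 and in Chronic, with a summed intensity of 298 to 366 (D3), 209 to 588 (D7) and 190 to 361 (Chronic), against 90.1 to 104 in Control, and Cd68, a lysosomal protein of phagocytes, led with 3.50 ± 0.48 at D3. Of 9 astrocyte genes 2 rose at each time, the intermediate filament genes Vim and Gfap (2.81 ± 0.27 and 2.15 ± 0.17 at D3). Without the fold limit 5, 3 and 2 of the 9 were higher, against 11.8%, 8.04% and 6.28% of all genes. At the same times 2, 0 and 1 of them were lower. Their median log2 fold change was 0.42 (D3), 0.31 (D7) and 0.05 (Chronic). The sum of the 9 was 522 to 547 (D3), 488 to 514 (D7) and 353 to 479 (Chronic), against 404 to 416 in Control. Of 9 oligodendrocyte genes and 5 endothelial genes none passed. The sum of 8 oligodendrocyte genes was 202 to 294 (D3), 233 to 290 (D7) and 221 to 328 (Chronic), against 198 to 253 in Control, and that of the 5 endothelial genes 49.4 to 58.1, 40.9 to 54.5 and 37.4 to 43.6, against 38.9 to 52.6. Of 6 choroid plexus genes 1 passed, Ttr as lower at D7 (adjusted p = 0.0451, with 3 of 5 spots used), with a standard error of 1.34 on the log2 scale. The sum of the 3 with a value on every array, Ttr not among them, varied within each group (0.411 to 5.44, 0.631 to 9.48 and 0.679 to 8.55, against 0.469 to 3.18 in Control). The part of any of these cell types in the levels of the 9 genes was not tested.

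For each member that fell, the genes with the most similar pattern were sought by the root mean square difference of centred log2 values over the arrays, among 8478 genes flagged G on all 18 arrays. Nearest to Pvalb were Cyp46a1, the brain cholesterol 24-hydroxylase (0.19), and Grb10, an adaptor of insulin receptor signaling (0.19), set against a root mean square of Pvalb itself of 0.47. Cyp46a1 ran from 9.03 to 10.7 at D3, from 9.21 to 17.3 at D7 and from 11.2 to 16.2 in Chronic, against 20.1 to 23.5 in Control. Nearest to Nefm were the kinesin gene Kifc2 (0.18) and Ddn, the gene of the postsynaptic protein dendrin (0.20), against 0.50 for Nefm itself. Kifc2 was lowest on D7 replicate 33 and on Chronic replicate 41 within their groups, as Nefm was.

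Calb1 was closest to the potassium channel gene Kcns3 (0.25) and to Orc4, a subunit of the origin recognition complex (0.26), against 0.61 for Calb1 itself. Both, like Calb1, were lowest on D7 replicate 33 and Chronic replicate 41 and highest at D3 on replicate 12. Camk2a, over 17 arrays, was closest to the sodium channel subunit gene Scn3b (0.28) and to Morn1 (0.29), against 0.59. Both were lowest on D3 replicate 12. Calb2 was closest to Tmem163, a zinc transporter gene (0.31), and to the homeobox gene Shox2 (0.34), against 0.61. Both had their highest D7 value on replicate 33 and their highest Chronic value on replicate 41, where Shox2 was at 1.29, against 0.463 to 0.572 on the other Chronic arrays. These likenesses were chosen as the smallest among many genes and are a description.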

How the data were processed

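Total RNA of rat hippocampus was measured on CodeLink Rat Whole Genome arrays, 1 array per rat. The authors scanned the arrays with a GenePix scanner, quantified the spots with GenePix Pro and corrected and normalized them with CodeLink Expression Analysis. The deposited normalized intensity is the deposited raw intensity divided by 1 constant per array (97.3 to 189.8), as checked on the brighter spots. The background correction itself was not checked. Genome build and annotation release of the array design are not given in the sources used here. Of 33849 gene probes per array, 16740 were named by the platform annotation and 205 by RefSeq accession; 165 naming several genes and 16739 unnamed were tested but not assigned.

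Spots flagged G or L were kept, as in the methods, and 0.699% were set to missing. On each array, values under the percentile 1 of its positive values were set to that percentile before log2 was taken. Probes with at least 3 values per pilocarpine group and 2 in Control (33800) were fitted with limma 3.58.1 in R 4.3.3 (4 groups, eBayes with trend), and p-values were adjusted by Benjamini and Hochberg. The script was tested on simulated data. The methods compare each time with its own controls, but 1 Control array per time was used here, so the 3 were pooled. For a gene with several probes the probe of highest mean was used.

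The members and gene lists were chosen with earlier results of these data known. Named were all members, up to 4 called genes per list of relatives, up to 2 called genes per cell type list by size of change, and the 2 genes most like each called member. Alternatives were quantile normalization, scaling at the percentile 75, a floor at the percentile 5, a filter on flag G, all spots kept, no trend, the methods' t-test, the time-matched Control array, fits of only the compared groups, the other probes and leaving out each array. The normexp correction and a slide or scan block were not run, since the columns used hold neither separate background values nor a slide or scan.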

Additional observations from a re-analysis of the deposited data

Results flagged for a closer look

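In 27 groups of 5 arrays or 4 values, each a gene within D3, D7 or Chronic, 1 array was set against the others by its gap to the nearest value over the range of the group, and 5 passed Dixon's 95% critical value. Chance gives about 1 in 20 groups. On D7 replicate 33, Calb2 was high, at 2.05 on the log2 scale (intensity 4.14), and Pvalb was low, at 0.89 (intensity 1.86). Without this array the log2 fold change of Pvalb at D7 was -0.45 and that of Calb2 -0.76, and neither reached 2-fold. Pvalb was high on Chronic replicate 42, at 2.00 (intensity 4.0). Camk2a was low on D3 replicate 12, at 3.20 (intensity 9.21). Nefh was low on D3 replicate 11, at -4.31 (intensity 0.0505), where its spot was flagged L.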

How the results depend on the processing

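The count of members lower at D3 was 5, and 4 to 6 when 1 array was left out. It was 2 against only the time-matched Control array. Camk2a was not called at D3 after quantile normalization, by the adjusted methods' t-test or by its other probe. The members' median log2 fold change at D3, -1.14 in the main fit, was -0.86 after quantile normalization. With the other probes of Camk2a and Camk2b it was -0.89. The count in Chronic was 1, unchanged with any 1 array left out, and 0 by the adjusted methods' t-test and against the time-matched array. At D7 it was 0, and 0 to 2 with 1 array left out (Calb1 and Nefm without D7 replicate 34). Members differing between Chronic and D3 were 0 to 1 (Calb2 without Chronic replicate 44, 1.01).

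Over all genes, 120 were lower at D3, 60 at D7 and 83 in Chronic. Quantile normalization gave 74 at D3 and 51 in Chronic; the percentile 75 as scale gave 28 at D7 and 52 in Chronic. The adjusted t-test gave 10 lower and 43 higher at D7, 21 lower and 150 higher in Chronic, 3 for D7 against D3 and 0 for Chronic against D7. Unadjusted it gave 200 for D7 against D3, 221 for Chronic against D3 and 81 for Chronic against D7. The time-matched array gave 67 lower at D3, 28 lower and 225 higher at D7, and 3 lower and 32 higher in Chronic. Chronic against D7, 5 genes, gave 3 without trend, 1 with only the compared groups and 2 to 11 with 1 array left out, and D7 against D3, 65 genes, gave 31 to 100. The causes were not tested.

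Directions turned only for changes that did not pass. Camk2a in Chronic was at 0.056 after quantile normalization, and in Chronic against D7 at -0.13 by its other probe. With 1 array left out, Chronic against D7 ran from -0.028 (without D7 replicate 33) to 0.44 for Camk2a, from -0.18 (without D7 replicate 33; -0.07 without Chronic replicate 42) to 0.083 for Pvalb, from -0.15 (without Chronic replicate 41) to 0.39 for Calb2 and from -0.26 to 0.00012 (without D7 replicate 33) for Nefh. Chronic against D3 ran from -0.069 (without Chronic replicate 45; -0.033 without D3 replicate 13) to 0.25 for Calb1 and from -0.29 (without D3 replicate 11) to 0.48 for Nefh, and D7 against D3 from -0.022 (without D3 replicate 12) to 0.40 for Hpca and from -0.16 (without D3 replicate 11) to 0.61 for Nefh.

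No paired analysis was possible because no replicate number occurs in more than 1 group. The Control group has 3 arrays of 3 times, so time and Control spread cannot be told apart, and Nefh is limited by its signal near background.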
